A study of Oryza sativa with 2 samples.

Results

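Kinesins are the motor proteins that move along microtubules or take their ends apart, and rice numbers them by subfamily, from the sequence of the motor, with a letter for each gene. The genes described here are those that the rice gene table lists as KIN with a subfamily number and a letter, as symbol or synonym. The table held 35 of them, and 32 could be read on the array through a probe set annotated to 1 gene, out of 17905 genes read in this way. KIN12F, KIN14D and KIN14P had no such probe set and were not analysed here. The 32 genes fell into 8 subfamilies, of which KIN14 was the largest with 14 genes read, followed by KIN7 with 7 and KIN10 with 3, while KIN5, KIN12 and KIN13 had 2 each and KIN4 and KIN8 had 1 each. The rule uses gene names and no signal.

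The RNA came from endosperm of the japonica cultivar Zhonghua11, picked by hand 2 days after pollination, from plants kept in a phytotron at 28 °C in the light and 22 °C in the dark. This is the only group, with 2 samples and 1 Affymetrix rice array for each, so the values are levels with the spread between the arrays, and there was no comparison between groups. The labels do not tell whether the samples came from separate plants, and the spread may be technical. Rice endosperm at this stage is a syncytium, in which nuclei divide in a common cytoplasm, and the series' design text places the harvest before cellularization. In plant cells in general, kinesins build and focus the mitotic spindle, carry material to the phragmoplast, the microtubule array in which the new cell wall is laid down, and set the order of cortical microtubules that guides cellulose deposition. Some families act in several of these tasks.

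All values are deposited signal intensities, given for array 1 and then array 2, and a log2 value is the mean of both arrays ± SD with n = 2. Background was the 95th percentile of 64 probe sets against reporter and transgene sequences, which came to 52.7 for array 1 and to 37.9 for array 2. Background was passed on both arrays by 29 of the 32 kinesin genes (90.6%), against 74.1% of all genes read. KIN8B, KIN14B and KIN14K did not pass it on either array in the probe set read. Far from background, at over 10 times its signal on both arrays, were 23 of the 32 (71.9%), against 45.2% of all genes read. The median log2 signal was 10.38 over the 32 genes and 8.58 over all genes read. Among the brightest 10% of genes on each of the arrays were KIN10A, KIN10B, KIN13A and KIN14N, which is 4 of 32 (12.5%) and close to the 9.53% of all genes read. These shares describe 1 tissue and were not tested. Probe sets differ in how strongly they bind, so a signal shows that a transcript was detected and how closely the arrays matched. No order of transcript amounts between genes is drawn from it. Control probe sets at the 3' end read higher than those at the 5' end, by 13.1- and 13.7-fold for actin. For Gapdh the ratios were 3.55 and 4.45. How far such a 3' bias lowered any kinesin signal on both arrays alike was not tested.

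**Figure D1:**
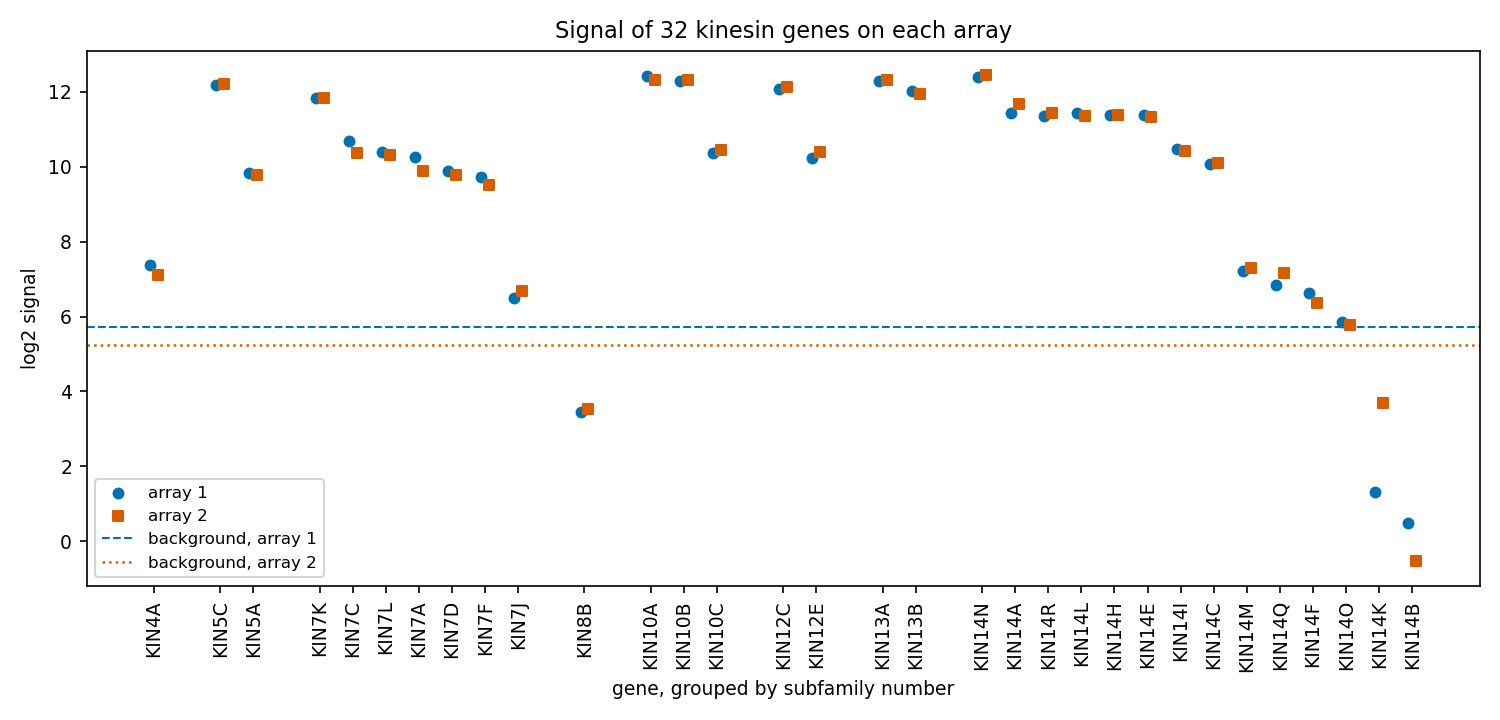
Log2 signal of each of the 32 kinesin genes on array 1 (circles) and array 2 (squares), grouped by subfamily number and ordered by mean within it; the dashed and dotted lines are the background of each array. In 29 genes both points lie above both lines, and KIN8B, KIN14K and KIN14B lie below them.

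The KIN5 motors, which in animals and fungi are bipolar and slide antiparallel spindle microtubules apart, were both above background. KIN5C (gene 9271005) read 4653 and 4701, or 12.19 ± 0.01 on the log2 scale. KIN5A (gene 9268593) read 908 and 878, or 9.80 ± 0.03. The arrays thus lay within 1.03-fold of each other for KIN5A and 1.01-fold for KIN5C.

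All 3 KIN10 genes were above background. KIN10A (gene 4331094) is the same gene as STD1, named in rice for a dwarf mutant without a stem and encoding a phragmoplast-associated motor. It read 5473 and 5053 (12.36 ± 0.08). KIN10B (gene 4335606) read 4968 and 5081 (12.29 ± 0.02), and KIN10C (gene 4339007) read 1322 and 1393 (10.41 ± 0.05). KIN10 was the only subfamily with more than 1 gene among the brightest 10%, and its 3 genes spanned log2 means from 10.41 to 12.36. That count rests on the cut. KIN10A and KIN10B stood at percentiles 90.9 and 90.4 of all genes read, and KIN5C, KIN12C and KIN13B at 89.7, 88.7 and 87.9.

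KIN12 motors are best known from Arabidopsis, where members sit in the phragmoplast midzone or mark the site of the future division plane. Both genes read here were above background. KIN12C (gene 4333349) read 4306 and 4431 (12.09 ± 0.03). KIN12E (gene 4344043) read 1208 and 1328 (10.31 ± 0.10), with array 2 higher by 1.10-fold.

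The KIN13 subfamily carries its motor in the middle of the protein, and its animal members take microtubule ends apart instead of walking. KIN13A (gene 4337845) is the rice seed-size gene SRS3, whose mutants bear small round grains. It read 4983 and 5121 in the probe set used (12.30 ± 0.03). A second probe set of KIN13A, designed from the same cDNA, read 4714 and 4832 (12.22 ± 0.03), so its probe sets gave closely similar signals. KIN13B (gene 4326684) read 4175 and 3929 (11.98 ± 0.06), through the only probe set of the 32 with the suffix _x_at, which the array maker uses where probes may also bind other transcripts. How much of the KIN13B signal came from other transcripts was not tested.

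The KIN7 subfamily is a diverse group in plants. It includes the NACK motors, which in tobacco and Arabidopsis switch on a kinase cascade needed for the phragmoplast to expand. All 7 genes read were above background, with a subfamily median of 10.06 and gene means from 6.58 to 11.82. KIN7A (gene 4323990), which the gene table also lists as NACK, read 1221 and 937 (10.06 ± 0.27). KIN7K (gene 4349100) read 3627 and 3625 (11.82 ± 0.00), an almost identical signal on both arrays. KIN7C (gene 4330142) read 1656 and 1313 (10.53 ± 0.24), and KIN7L (gene 4350714) read 1347 and 1274 (10.36 ± 0.06). For KIN7A and KIN7C the gap between the arrays was the widest of the subfamily. KIN7D (gene 4330897, also listed as K16) read 947 and 875 (9.83 ± 0.08), and KIN7F (gene 4336528, also listed as K23) read 845 and 724 (9.61 ± 0.16). KIN7J (gene 4347645) was the dim member, with signals of 89.6 and 103 (6.58 ± 0.14), 1.70 and 2.71 times background.

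KIN14 is the largest kinesin subfamily of land plants and holds the motors that move towards microtubule minus ends, the direction that animal cells leave mainly to dynein. Its median was 10.26, but the 14 genes covered the whole range of signals, from 12.42 for KIN14N down to KIN14B below background. There were 8 genes at log2 means of at least 10.08 and 6 at 7.25 or less, of which 4 were above background. The first of these sets held KIN14N (gene 4342193), which read 5401 and 5561 (12.42 ± 0.03), and KIN14A (gene 4327702), which read 2768 and 3233 (11.55 ± 0.16). In KIN14A array 2 was higher by 1.17-fold. KIN14R (gene 4352796) read 2615 and 2761 (11.39 ± 0.06), KIN14L (gene 4340497) read 2745 and 2613 (11.39 ± 0.05), KIN14H (gene 4337093) read 2662 and 2653 (11.38 ± 0.00) and KIN14E (gene 4331382) read 2664 and 2566 (11.35 ± 0.04). In each of these 4 genes the arrays differed by 1.06-fold or less. KIN14I (gene 4337322), the rice KCBP, is a motor that in Arabidopsis is switched off by calmodulin binding, and it read 1427 and 1374 (10.45 ± 0.04). KIN14C (gene 4326167) read 1074 and 1085 (10.08 ± 0.01).

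Among the dim KIN14 genes, KIN14M (gene 4341280) read 149.6 and 156 (7.25 ± 0.04) and KIN14F (gene 4332578) 99.0 and 82.7 (6.50 ± 0.18). KIN14Q (gene 4352456), the rice KCH1, which has a calponin homology domain and binds actin as well as microtubules, read 114 and 144 (7.00 ± 0.24). KIN14O (gene 9267314) read 57.9 and 55.2 (5.82 ± 0.05), only 1.10 and 1.46 times background. Detection of KIN14O, KIN14F and KIN7J was lost when the brightest reporter probe set, at 92.3 and 98.7, was taken as background, which left 26 of 32 kinesin genes above it, against 65.5% of all genes read. KIN14B (gene 9267695) read 1.41 and 0.694 through its single probe set, below background on both arrays. Its transcript was thus not detected, and since a probe set may bind poorly, this sets no upper bound on its level.

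KIN4A and KIN8B are the single genes of their subfamilies. KIN4A (gene 4346402), known in rice as GDD1 from a dwarf mutant and tied to the order of cellulose microfibrils, read 167 and 137 (7.24 ± 0.20), 3.17 and 3.62 times background. KIN8 motors of yeast and animals shorten microtubules from their plus ends. KIN8B (gene 4334272) depended on the probe set. Its _at probe set read 11.0 and 11.5, below background on both arrays, while its _x_at probe set read 623 and 539 (9.18 ± 0.15), above it on both. Likewise, KIN14K (gene 4339353) read 2.51 and 13.0 through its _at probe set, below background. Its other 2 probe sets, both with the suffix _x_at, were above background on both arrays, one with signals of 89.7 and 96.6 and the other with 71.0 and 103. Neither of these exceeded the brightest reporter probe set, at 92.3 and 98.7, on both arrays. Both KIN8B and KIN14K were thus detected only through probe sets of the _x_at kind, and whether those bound other transcripts was not tested. When every gene was read through its brightest probe set, 31 of the 32 kinesin genes were above background, against 75.9% of all genes read.

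**Figure D2:**
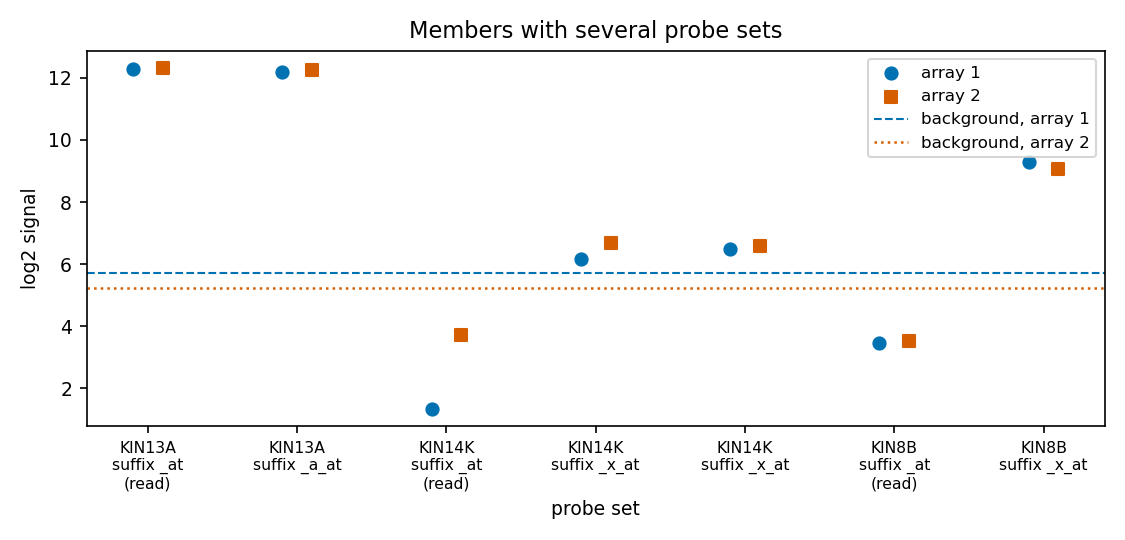
Log2 signal on array 1 (circles) and array 2 (squares) of every probe set of the 3 genes that have several; "read" marks the one used in the text and the lines are the backgrounds. The KIN13A probe sets lie together, whereas the probe sets of KIN8B and of KIN14K fall on both sides of background.

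The probe sets read for the 29 genes above background had no mean log2 signal between that of KIN14M, 7.25, and that of KIN7F, 9.61, a stretch that held 30.7% of all genes above background. At or over 9.61 were 23 genes, 15 of the 18 outside KIN14 and 8 of the 14 in KIN14. The 18 and the 14 include KIN8B, KIN14B and KIN14K, which were not above background. KIN7F, at the edge, stood at percentile 61.2 of all genes read. The rest of the 29 were KIN4A, KIN7J, KIN14F, KIN14M, KIN14O and KIN14Q. The second probe set of KIN8B, at 9.18, lies inside the stretch, as does KIN1 at 8.41, a kinesin named without a subfamily letter and so no member. The stretch was noticed in these values and depends on probe affinity, so it is given as a description of the probe sets alone.

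**Figure D3:**
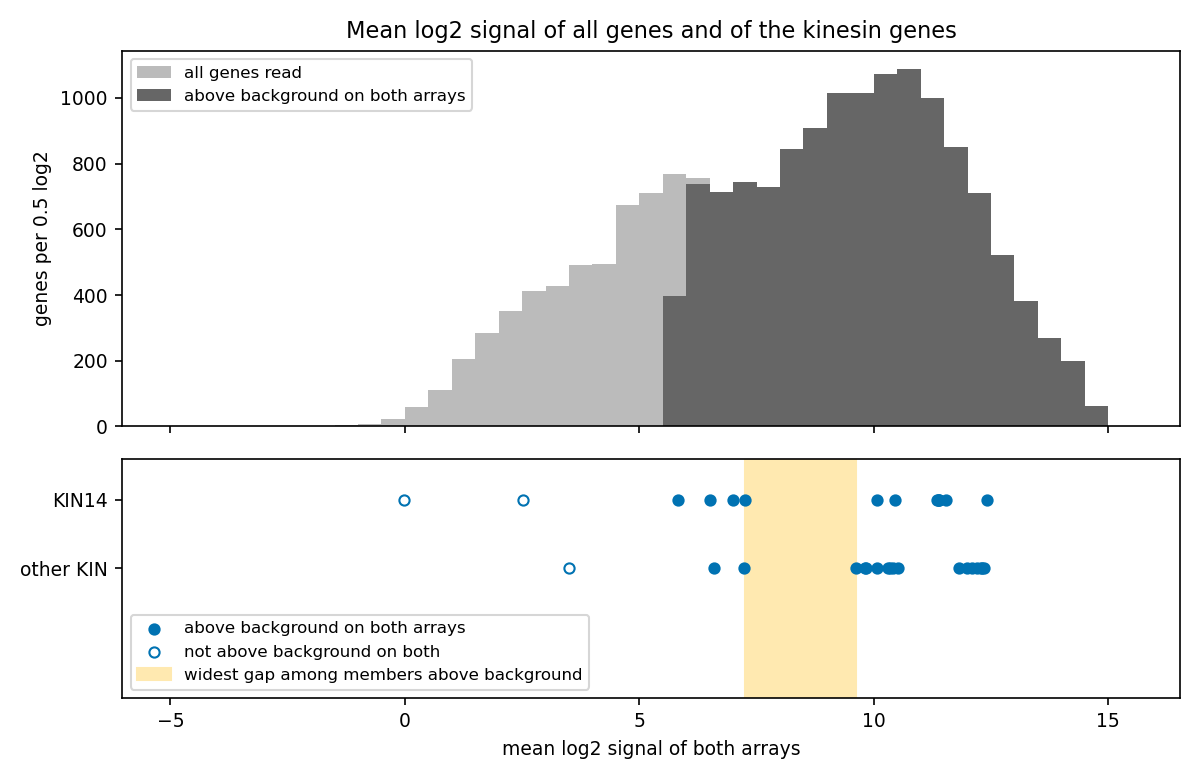
Upper panel, number of genes per 0.5 log2 units of mean signal, for all 17905 genes read (light) and those above background on both arrays (dark); lower panel, the 32 kinesin genes on the same axis, KIN14 apart from the other subfamilies, with open points for the 3 genes not above background. The shaded stretch from 7.25 to 9.61 holds none of the probe sets read for the 29 genes.

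Both arrays gave nearly the same kinesin signals. The median difference, array 2 minus array 1, was -0.005 on the log2 scale over the 29 genes above background and -0.0127 over all 13263 genes above background. Lower on array 2 were 16 of the 29 and higher 13, against 52.6% of all genes above background that were lower. None of the 29 differed by over 1.5-fold, where 5.91% of all genes above background did (2.3% higher on array 2 and 3.61% higher on array 1). With so low a share among all genes and only 29 members, the 0 is no result about kinesins. The median SD was 0.05 for the kinesin genes and 0.10 for all genes above background. Dim genes varied more, and the pooled SD at log2 means of at least 9.61 was 0.10 for the 23 kinesins and 0.13 for all genes. Under 9.61 it was 0.16 for the 6 kinesins and 0.27 for all genes above background.

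The widest differences above background were those of KIN7A (-0.38), KIN14Q (0.34) and KIN7C (-0.34), or 1.30-, 1.26- and 1.26-fold. In KIN7, 6 of 7 genes read lower on array 2, with a median difference of -0.11, though KIN7K was only 0.0452% lower and KIN7J was higher by 1.15-fold. Without array 1 the KIN7 median was 9.87 and without array 2 it was 10.25. Both are the values of KIN7A, the middle gene of the subfamily on each array. KIN14 had 7 of 14 genes lower on array 2 and a median difference of 0.01. Unlike the KIN7 figures, these include genes below background, KIN14B (-1.02) and KIN14K (2.37). With 2 samples of 1 group none of these differences was tested.

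**Figure D4:**
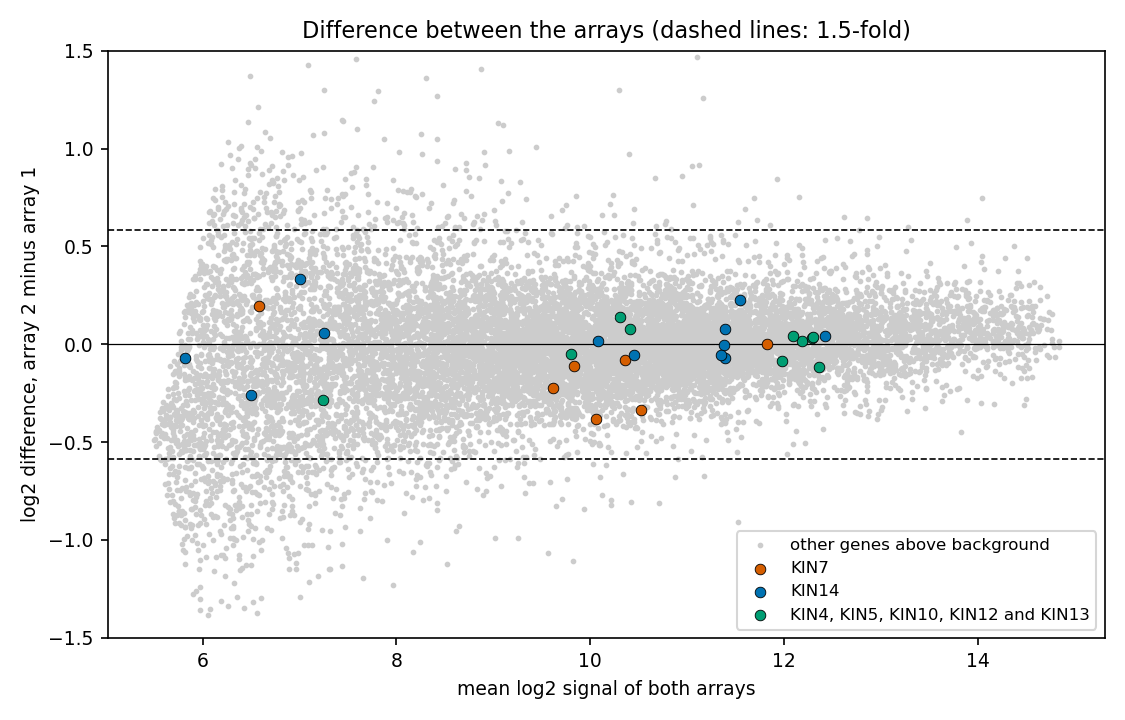
Log2 difference between the arrays (array 2 minus array 1) against the mean log2 signal for genes above background on both arrays, with the kinesin genes in colour by subfamily and dashed lines at 1.5-fold; 12 genes lie outside the plotted range of 1.5 log2 units either way. All 29 kinesin genes lie between the dashed lines, and KIN7A and KIN7C are the lowest of the coloured points.

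Every gene read in the lists of partners in division was above background in the probe set read, as were 74.1% of all genes read. These short lists are therefore described by their values. Some tubulins, TUBB1 among them (30.5 and 4.98), also have a probe set below background on both arrays. TUBB3 was read at a log2 mean of 10.24, while its _x_at probe set stood at 14.14. ACT3 has one below it on array 2, and MOR1 has one at 74.2 and 114. The probe sets of TID1, of ACT1 and of ACT7 lay close together. Each of the 11 tubulins read passed background on both arrays. Their median log2 signal was 14.00, and 8 of them were among the brightest 10%. TUBB5, a beta-tubulin, read 23014 and 25777 (14.57 ± 0.12), the alpha-tubulin gene TID1 21836 and 21810 (14.41 ± 0.00) and TUBB1 18489 and 19392 (14.21 ± 0.05). Of the microtubule-associated proteins all 5 read were above background. They were MOR1, which in Arabidopsis promotes microtubule growth, at 12.73 ± 0.02, and the MAP70 genes MAP70.3 (11.07 ± 0.23), MAP70.2 (10.26 ± 0.15), MAP70.1 (6.84 ± 0.04) and MAP70.4 (5.95 ± 0.02). MAP70.1 and MAP70.4 read at most 117 on either array.

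All 7 mitotic cyclins read were above background, with a median of 12.02. These partners of the division kinases were led in signal by CYCB2-2 (13.20 ± 0.08), CYCB1-1 (13.12 ± 0.16) and CYCB2-1 (12.19 ± 0.02). CDKB2-1, a mitotic kinase found in plants, read 6700 and 6719 (12.71 ± 0.00), and CenH3, the histone of the centromere to which spindle microtubules attach, read 2309 and 2616 (11.26 ± 0.13). MPK4, the only cytokinesis gene of the list that was read besides KIN7A, stood at 7.17 ± 0.05. The 4 actin genes, encoding the second filament that KCH motors bind, were all above background, with ACT1 at 14.37 ± 0.35, ACT7 at 13.43 ± 0.02, ACT3 at 12.31 ± 0.04 and ACT2 at 9.96 ± 0.14. The symbol patterns matched no myosin gene.

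**Figure D5:**
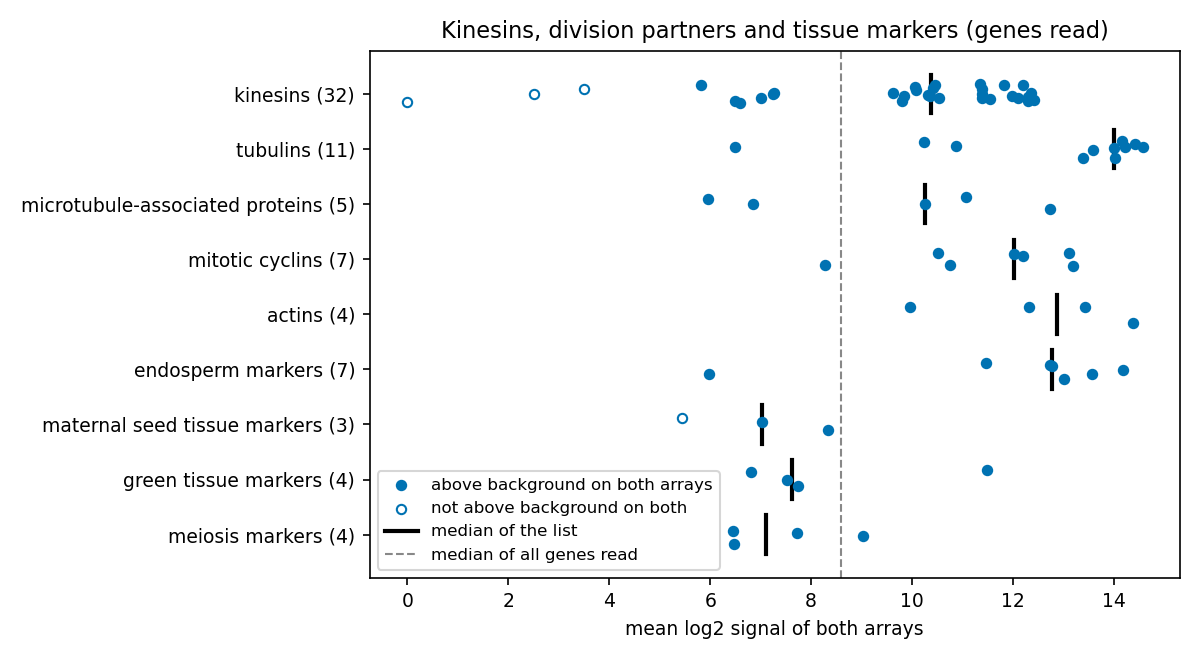
Mean log2 signal of each gene read, for kinesins, their partners in division and markers of tissues; filled points are above background on both arrays, open points are not, black bars are the medians of the lists and the dashed line is the median of all genes read, 8.58. The kinesin points spread from below background to 12.42, while the tubulin median lies at 14.00.

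Genes listed as markers of the labelled tissue and of others were read, and how specific each is to its tissue was not tested. All 7 endosperm markers were above background, with 5 of them, AGPS2, SWEET11, SSI, SUT1 and GBSSI, among the brightest 10%. NF-YB1 stood at 11.46, and MADS6 was close to background at 69.1 and 56.9. Their summed signal was 56665 on array 1 and 54739 on array 2. Of 3 maternal seed tissue markers 2 were above background, MADS29 and MADS21, while MADS13 passed on array 2 alone. The summed signal of all 3 was 495 and 498. The meristem gene OSH1, at 1.16 and 11.7, was below background on both arrays. The green tissue markers CAB2R, RCABP89, OEE3 and RBCS were all above background, with summed signals of 3237 and 3530. Most of this sum was CAB2R, at 2747 and 3000 (log2 mean 11.49), while RCABP89, OEE3 and RBCS stood at 7.74, 7.52 and 6.80. Sums add probe sets that bind unequally, so those of different lists cannot be compared. Kinesins also serve meiosis, and all 4 meiosis markers read were above background (74.1% of all genes read), with PAIR2 at 545 and 495, MER3 at 241 and 185, MEL1 at 97.8 and 81.1 and PAIR1 at 129 and 59.0. MEL1 and PAIR1 were under the brightest reporter probe set on array 2. Of the markers above, GBSSI, RBCS and MER3 also have probe sets below background on both arrays, which were not the ones read. What part maternal, green or meiotic cells had in any kinesin signal was not tested, and in RNA from a whole tissue fewer cells of a type and less RNA per cell cannot be told apart.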

How the data were processed

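The deposited table holds 1 signal intensity per probe set and array on a linear scale. The tool named for the deposited intensities is MAS5, per the submitters' processing notes, but neither a version nor any setting is given in the sources used here. The intensities as the authors deposited them had a trimmed mean of 500.1 on both arrays without the lowest and highest 2% of 57381 values, so each array had been scaled to it. No further scaling was applied, and log2 was taken with no pseudocount. The number of arrays limits the precision.

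Genes came from the platform annotation, which pairs 22436 probe sets with 1 gene, 95 with several and lists none for 34850. Members were joined by gene identifier to the table of assembly ASM3414082v1, used for names only; symbols KIN, an optional hyphen, a number and a letter were accepted. No coordinates or sequences were used here. A gene was read through its _at probe set, else _a_at, _s_at or _x_at, then the one with the highest mean; 29 of the 32 had a single probe set. All members are named, with the 3 brightest genes of each partner list, or all genes of lists of up to 6, and all 7 endosperm markers. Partner lists were matched by symbol or synonym, leaving out a MADS-box gene, a succinate dehydrogenase gene and KIN7A that the patterns also caught. The members and lists were chosen with earlier results of these data known.

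With 1 group no test was run. A shared spread, the pooled SD of 0.114 (log2) between arrays over the 29 genes above background, was used to judge alternatives. Alternatives were the probe set rule, quantile normalization, an offset of 16, other backgrounds and each array alone. Steps were tested on simulated data, with genes silenced far below background or bright genes raised on 1 array. Calls near background were not covered by it. Python 3.11.15, pandas 2.3.3, NumPy 2.4.6, SciPy 1.17.1 and matplotlib 3.10.9 were used.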

Additional observations from a re-analysis of the deposited data

Results flagged for a closer look

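Signals above background also appeared in kinesin probe sets that the values above did not use. For KIN8B the _x_at probe set stood at a mean log2 signal of 9.18, against 3.49 in the probe set read. For KIN14K its _x_at probe sets, 2 in number, stood at 6.42 and 6.54, against 2.52 in the one read. The second probe set of KIN13A, with the suffix _a_at, stood at 12.22, close to the 12.30 of the probe set read.

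A further 3 genes carry kinesin names without a subfamily letter. KIN1, listed also as PSS1, a rice kinesin named for a pollen semi-sterility mutant, was above background at 372 and 310 (8.41 ± 0.19, n = 2) through an _s_at probe set. KINUA and KINUB had no single-gene probe set and were not analysed here.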

How the results depend on the processing

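The count of kinesin genes above background stayed between 26 and 31 under every alternative run: 31 with the brightest probe set (75.9% of all genes read), 30 with probe sets averaged (73.5%), 29 after quantile normalization (74.1%) and on array 1 or array 2 alone (75.6% and 78.2%), and 26 with the highest reporter probe set (65.5%) or a fixed signal of 100 (65.1%) as background. The kinesin median lay between 10.37 and 10.45, and no kinesin gene above background was over 1.5-fold apart under any alternative run. Most subfamily medians moved by less than the pooled SD between arrays. KIN14 was an exception, at 10.90 with only genes above background (10.26 in full, by the removal of KIN14B and KIN14K). KIN8 was another, at 9.18 with the brightest probe set and 6.34 with probe sets averaged. The offset of 16 moved KIN4 to 7.39 and KIN8 to 4.77, both by its construction, since it raises low signals most. On single arrays KIN4, which is KIN4A alone, ranged from 7.10 to 7.38 and KIN7 from 9.87 to 10.25. The KIN7 values are those of KIN7A, the middle gene of the subfamily on both arrays. Why KIN4A and KIN7A differed between the arrays was not tested. KIN8 had no value with only genes above background. Of single genes, 2 moved with the brightest probe set, 2 with probe sets averaged and none after quantile normalization. The offset moved 9, all of them dim, by its construction, and either array alone moved 7. Each array lies equally far from the mean of both, so the single-array counts restate the spread between the arrays. Of the 5 members above but within 3-fold of background on an array, KIN7J, KIN14F and KIN14O were lost with either higher background, and KIN14M and KIN14Q were not.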
